A study of Sus scrofa with 6 samples.

Results

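The HOX cluster genes were examined as the 34 genes, of 18007 in the RNA-seq table, whose symbol is HOXA to HOXD followed by a number. They comprised 9 HOXA genes on chromosome 18, 9 HOXB genes on chromosome 12, 8 HOXC genes on chromosome 5 and 8 HOXD genes on chromosome 15 of Sscrofa11.1. Another 5 genes of the mammalian set of 39 were outside this rule: HOXA9 is listed by its identifier alone, and HOXA6, HOXB1, HOXC12 and HOXD12 were not analysed here. RNA was sequenced from 3 porcine embryonic fibroblast lines (PEF5, PEF7 and PEF8) and from the porcine induced pluripotent stem cell lines made from each of them (piPSC5, piPSC7 and piPSC8), with 1 library per line and state. PEFs came from the ear tip of embryos at day 90 of gestation, all from the same boar and Meishan sow. The labels spell the breed of the boar Longwhite, and the study gives it as Large White. The piPSCs were derived from them with lentiviral, doxycycline-dependent Oct4, Sox2, Klf4 and cMyc (OSKM) together with the M2rtTA transactivator, were picked as colonies and were kept in LF2i medium on mouse embryonic fibroblast feeders. Each line is 1 embryo and each piPSC line is 1 derivation. A single table of values per gene cannot separate feeder fragments from pig fragments in the piPSC libraries.

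HOX genes encode homeodomain transcription factors that give cells their position along the head to tail axis, and along the limb. Each cluster is read roughly in order, so that genes with low paralogue numbers are used towards the head and genes with high numbers towards the tail and the limb tip. Cultured fibroblasts are known to keep the HOX pattern of the body site they came from, and the face and much of the head mesenchyme come from neural crest that uses few or no HOX genes. Trithorax (MLL) complexes keep the clusters open and Polycomb complexes keep them shut.

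The state of the cells was checked first with marker lists. Of 11 fibroblast markers, 10 were called lower in piPSCs (16.7% of all tested genes), with a median log2 fold change of -5.25, and their summed level was 4490 to 6470 FPKM (fragments per kilobase of gene length, scaled to the depth of the library) in PEFs and 131 to 226 FPKM in piPSCs. Of 10 pluripotency markers, 6 were in the table and 2, SOX2 and LIN28B, passed the filter on low values. Neither passed the test (limma adjusted p = 0.0626 and 0.0667), although both were called with a pseudocount of 0.1, and NANOG, SALL4, ESRRB and ZFP42 were at or below 0.0919 FPKM in every library. Of the cartilage, keratinocyte, skeletal muscle, endothelial, melanocyte and neural progenitor markers, 1, 2, 1, 1, 1 and 2 were tested, in that order. They gave 1 call in all, SOX9, which was lower in piPSCs, where 20.2% of all tested genes were called higher and 16.7% lower. Most genes of these lists did not pass the filter, so this count does not show that such cells were absent. The defining genes COL2A1, TP63, MYOD1, CDH5, TYR and OTX2 were at or below 0.187 FPKM in every library. Another 8 genes of these lists were above 1 FPKM somewhere, reaching 14.5 FPKM for NES (PEF5), 14.2 for DES (piPSC7), 5.24 for KRT10 (piPSC7), 5.2 for PAX6 (PEF7), 4.5 for SOX9 (PEF7), 4.18 for MITF (piPSC5), 3.04 for KRT14 (piPSC7) and 2.57 for PECAM1 (PEF8), and their part in the HOX levels was not tested. Depth ran from 11010629 fragments in piPSC8 to 17836510 in PEF5. Line 8 stood apart from the others in a way the groups do not explain. The PEF lines are described as male in the study, yet the Y-linked genes EIF1AY, UTY, KDM5D and DDX3Y had 77 to 4207 fragments in both libraries of line 8 and 0 in the other libraries, apart from 1 UTY fragment in piPSC5. Values are therefore given by line, and each test of the groups was also made without line 8.

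The promoter sequence of HOXD8 is shown because, of the genes whose start in the table lay close to the RefSeq start, it had the largest gain in FPKM from PEF8 to piPSC8. Its starts lay 38 bases apart. The window runs from 250 bases before to 50 bases after the RefSeq gene start on the plus strand of Sscrofa11.1, 5′ to 3′, and capitals mark CG dinucleotides. It lies at chr15:81930673-81930972.
HOXD8: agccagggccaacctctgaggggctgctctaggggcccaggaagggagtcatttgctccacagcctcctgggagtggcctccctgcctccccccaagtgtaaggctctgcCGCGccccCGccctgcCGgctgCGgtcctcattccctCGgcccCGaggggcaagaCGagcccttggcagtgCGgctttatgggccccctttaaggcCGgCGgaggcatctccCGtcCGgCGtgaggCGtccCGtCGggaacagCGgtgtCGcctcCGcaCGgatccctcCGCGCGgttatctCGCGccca
The window held 26 CG dinucleotides and 70.0% G and C, and 28.8% of 19556 promoters of protein-coding genes held as many CG dinucleotides or more. A RefSeq promoter was matched for 31 of the 34 HOX genes. Their windows held between 2 and 48 CG dinucleotides with a median of 14.0, against 16.0 over all promoters. Searched on both strands, TATAAA was found in 6 of the 31 HOX windows (10.9% of all promoters), CCAAT in 13 (35.4%), the homeodomain core TAATTA in 1 (4.11%) and the PBX and HOX pair motif TGATNNAT in 3 (6.48%). The HOXD8 window held none of these motifs. RefSeq and table starts lay within 500 bases of each other for 15 members, so the other windows may not be the start used in these cells. The windows with 2 CG dinucleotides, of HOXD3 and HOXD10, were among those others. Within the 15 members the count ran from 8 for HOXC5 to 48 for HOXA13, with more members above 16.0 than below. The median of 14.0 therefore does not show how CG-rich the starts in use were.

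HOX levels were low in lines 5 and 7 and high in line 8. The summed level of the 34 genes was 2.69, 11.7 and 129 FPKM in PEF5, PEF7 and PEF8. The sum was 7.1, 12.6 and 88.6 FPKM in piPSC5, piPSC7 and piPSC8. The groups overlapped, at 47.7 ± 70.3 FPKM for PEFs and 36.1 ± 45.5 FPKM for piPSCs (mean and SD, n = 3 lines each). In bulk RNA, fewer cells that use a gene and less RNA per cell cannot be told apart. Of the 34 genes, 0, 3 and 21 reached 1 FPKM in PEF5, PEF7 and PEF8, and 1, 3 and 10 reached it in piPSC5, piPSC7 and piPSC8. In all, 22 members reached 1 FPKM in some library. The other 12 had highest values between 0.0286 FPKM for HOXB13 and 0.792 FPKM for HOXB9.

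**Figure D1:**
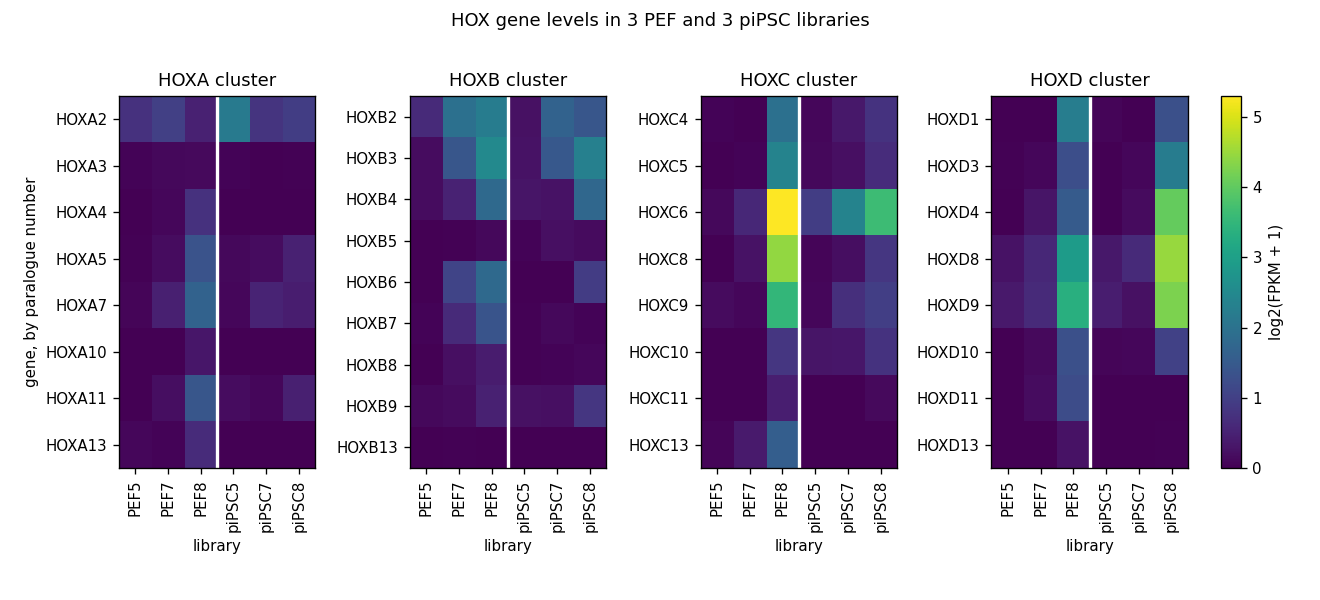
Level of HOX genes as log2(FPKM + 1), in colour, with genes in order of paralogue number down each cluster and the 6 libraries across; the white line parts PEFs from piPSCs. The bright cells lie in PEF8 and piPSC8, where HOXC6 reached 38.4 FPKM in PEF8 and HOXD8 reached 21.4 FPKM in piPSC8.

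The question of the design, whether HOX genes differed between PEFs and the piPSCs made from them, was tested with limma on log2(FPKM + 1) across the whole table. A mean of at least 0.5 FPKM was needed to be tested, and 16 HOX genes passed. Of these, 0 were called higher in piPSCs, where 20.2% of all 12428 tested genes were, and 0 were called lower, where 16.7% were. A call needed a Benjamini-Hochberg adjusted p under 0.05 and a 2-fold change. No HOX gene had an unadjusted limma p under 0.05 (0 of 16), where 7325 of all 12428 tested genes did, and the lowest adjusted p of limma was 0.276, for HOXA2. With limma's voom on recovered fragments 0 HOX genes were called, where 2891 of all tested genes were called higher and 2238 lower. Without the filter, 0 of 34 members were called in either direction by limma, where 13.1% of all genes were called higher and 10.6% lower. By sign 10 of the tested members were lower in piPSCs and 6 higher, and their median log2 fold change was -0.16, against 0.20 over all tested genes. Only 4 members would have been tested without line 8, so 12 passed through the line in which they were high, and these counts say nothing about the members that did not pass. Those 4 had log2 fold changes in lines 5 and 7 alone of 0.61 ± 0.50 for HOXA2, -0.34 ± 0.66 for HOXB2, 0.06 ± 0.59 for HOXB3 and 1.31 ± 0.53 for HOXC6 (SE), with the lowest limma adjusted p at 0.097 for HOXC6.

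The spread between lines of a group was wide for the tested HOX genes. Standard errors of the log2 fold changes were 0.40 to 1.43 with a median of 0.69, where the median over all tested genes was 0.26. Of these 16 HOX genes, 12 passed the filter only through line 8, in which they were high. The contrast with all tested genes was therefore partly fixed by the filter. PEF and piPSC values overlapped for 31 of 34 members and did not for 3 (HOXA3, HOXA13 and HOXC13), whereas 50.0% of all genes did not overlap. These separations rested on few fragments, with 4, 3 and 1 in the lowest PEF library of HOXA3, HOXA13 and HOXC13. With the line as a replicate block the median standard error of the members was 0.39, and 0 members were called. An absence of calls with such errors does not show that HOX levels were alike in PEFs and piPSCs.

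Line 8 was the highest line for most HOX genes, more often among PEFs than among piPSCs. PEF8 was the highest PEF library for 31 of 34 HOX genes, where it was for 38.6% of all genes. It was at least 2-fold above both PEF5 and PEF7 in FPKM + 1 for 18 members (3.32% of all genes) and at least 4-fold above both for 7 (0.800%). Among piPSCs, piPSC8 was the highest for 21 members (26.8% of all genes), piPSC7 for 4 and piPSC5 for 3, and 6 members were at 0 in all of them. piPSC8 was at least 2-fold above both other piPSCs for 7 members, where 2.00% of all genes were. The term for the line in limma, taken with the line as a replicate block and no filter, had an unadjusted p under 0.05 for 13 of 34 members (4.02% of all genes). After adjustment it passed for 0 members and for 0 genes of the table, with 0.311 as the lowest adjusted p. Each line term rests on a PEF and a piPSC library, and line 8 is 1 embryo, so the difference in Y-linked genes and any other difference between the embryos cannot be told apart.

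**Figure D2:**
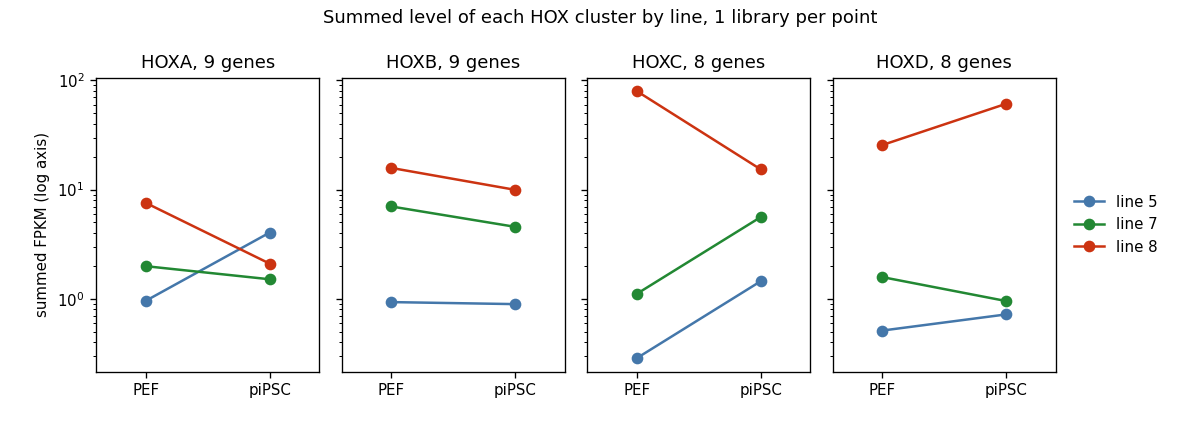
Summed FPKM of the members of each cluster on a log axis, PEF on the left and piPSC on the right, with 1 point per library and a line joining the PEF and piPSC libraries of the same line. Line 8 is highest in every cluster except HOXA among piPSCs, and from PEF8 to piPSC8 HOXC goes from 79.8 to 15.3 FPKM and HOXD from 25.6 to 61.2.

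HOXC was the cluster with the highest summed level in PEF8. The summed HOXC level was 0.286, 1.11 and 79.8 FPKM in PEF5, PEF7 and PEF8, and 1.45, 5.61 and 15.3 FPKM in piPSC5, piPSC7 and piPSC8. Each of the 8 HOXC genes was lower in piPSC8 than in PEF8, and their sum was 5.22-fold lower, although the counting intervals of HOXC10 and HOXC11 included no difference. In the other lines the sum went the other way, being 5.06-fold higher in piPSC5 than in PEF5 and 5.08-fold higher in piPSC7 than in PEF7, on 9 and 30 fragments in line 5 and 23 and 81 in line 7.

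HOXC8 (ENSSSCG00000038644, chr5:19222185-19226014), a gene of the thoracic region, was high in PEF8 alone. Its level was 0, 0.198 and 20.8 FPKM in PEF5, PEF7 and PEF8, and 0.055, 0.139 and 0.789 FPKM in piPSC5, piPSC7 and piPSC8. PEF8 had 761 fragments where the other libraries had 0 to 21, and the groups overlapped. The level in PEF8 was 105-fold that in PEF7 (95% counting interval 53 to 244), and that in piPSC8 was 26.3-fold lower than in PEF8 (17.1 to 42.8). Over the groups the log2 fold change was -1.20 ± 1.15 (SE, n = 3 lines each), with a limma adjusted p of 0.407. Counting intervals here and below are exact 95% intervals for the ratio of 2 libraries, and they cover counting error only.

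HOXC6 (ENSSSCG00000030585, chr5:19241217-19242651), which is used in the upper trunk and forelimb, had the highest value of any member, in PEF8. It did not lead in every library: HOXB2 was higher in PEF7, HOXA2 in PEF5 and piPSC5, and HOXD8 in piPSC8. Its level was 0.0792, 0.507 and 38.4 FPKM in PEF5, PEF7 and PEF8, and 0.938, 4.16 and 11.4 FPKM in piPSC5, piPSC7 and piPSC8. Line 8 was highest in both states, yet the value was lower after reprogramming in line 8 and higher in lines 5 and 7. piPSC7 was 8.2-fold PEF7 (3.41 to 23.8) on 35 and 6 fragments, and piPSC8 was 3.37-fold lower than PEF8 (2.67 to 4.28) on 89 and 412 fragments. The group difference was 0.32 ± 1.43 on the log2 scale (SE, limma adjusted p = 0.863). The row spans 708 bases of transcript, the RefSeq gene starts upstream of it, and other HOXC6 transcripts may be counted elsewhere.

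HOXC9 (ENSSSCG00000034474), also of the trunk, was at 0.114, 0.0607 and 10.4 FPKM in PEF5, PEF7 and PEF8, and at 0.0674, 0.64 and 0.968 FPKM in piPSC5, piPSC7 and piPSC8. It was 10.8-fold lower in piPSC8 than in PEF8 (6.92 to 17.6), and 10.5-fold higher in piPSC7 than in PEF7 (2.45 to 95) on 15 and 2 fragments. HOXC5 stood at 0, 0.0371 and 4.16 FPKM in PEF5, PEF7 and PEF8, and at 0.0825, 0.157 and 0.592 in piPSC5, piPSC7 and piPSC8. The HOXC5 row overlaps another row on the same strand. HOXC9 and HOXC5 shared the pattern of HOXC8, a single high library and overlapping groups. HOXC4 stood at 0.0361, 0 and 2.89 FPKM in PEF5, PEF7 and PEF8, and at 0.0713, 0.271 and 0.701 in piPSC5, piPSC7 and piPSC8. HOXC13, which is known for its part in hair and nail keratin expression, was at 0.0568, 0.303 and 2.01 FPKM in PEF5, PEF7 and PEF8 and at 0 in every piPSC library. Its groups did not overlap, but PEF5 held 1 fragment, which is within the limit of 3 fragments taken for a count of 0. With that limit piPSC8 was at least 7.27-fold below PEF8. The remaining HOXC members, HOXC10 and HOXC11, had highest values of 0.787 and 0.361 FPKM, both in PEF8.

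HOXD was the one cluster whose summed level was higher in piPSC8 than in PEF8. Its summed level was 0.512, 1.58 and 25.6 FPKM in PEF5, PEF7 and PEF8, and 0.72, 0.953 and 61.2 FPKM in piPSC5, piPSC7 and piPSC8. Between PEF8 and piPSC8, 4 neighbouring genes (HOXD3, HOXD4, HOXD8 and HOXD9) were higher in FPKM and the 4 on either side of them (HOXD1, HOXD10, HOXD11 and HOXD13) were lower. The sum of the former went from 18.9 to 58.7 FPKM, 3.11-fold, and that of the latter from 6.71 to 2.51 FPKM, 2.67-fold lower. The former were grouped after their values were seen, and this is a comparison of 2 libraries with no replicate of the line.

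HOXD8 (ENSSSCG00000040349, chr15:81930961-81935529) was at 0.202, 0.507 and 6.52 FPKM in PEF5, PEF7 and PEF8, and at 0.273, 0.54 and 21.4 FPKM in piPSC5, piPSC7 and piPSC8. Both libraries of line 8 lay above the other 4, and the groups overlapped. piPSC8 was 3.28-fold PEF8 (2.91 to 3.71) on 916 and 384 fragments, whereas piPSC7 was 1.06-fold PEF7 (0.607 to 1.85) on 25 and 33 fragments. The group difference was 0.56 ± 1.24 on the log2 scale (SE, limma adjusted p = 0.718).

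HOXD9 (ENSSSCG00000015982), the posterior neighbour of HOXD8, was at 0.29, 0.557 and 9.09 FPKM in PEF5, PEF7 and PEF8, and at 0.344, 0.174 and 18.1 FPKM in piPSC5, piPSC7 and piPSC8. HOXD4 (ENSSSCG00000015984), a gene of the neck and hindbrain border, was at 0, 0.232 and 1.88 FPKM in PEF5, PEF7 and PEF8 and at 0, 0.109 and 15.6 in piPSC5, piPSC7 and piPSC8. The ratio of piPSC8 to PEF8 was 1.99 for HOXD9 (1.58 to 2.5) and 8.32 for HOXD4 (5.27 to 13.7), the largest ratio of any HOX gene in this line. HOXD3 was at 0.0205, 0.0657 and 1.4 FPKM in PEF5, PEF7 and PEF8 and at 0, 0.0616 and 3.69 in piPSC5, piPSC7 and piPSC8, a ratio of 2.63 in line 8 (1.9 to 3.68). In each of these genes line 8 was above the other lines in both states. The HOXD3 and HOXD4 rows overlap on the same strand, and how fragments in the overlap were counted is not given in the sources used here, so their values are not independent. The microRNA mir-10b, which lies between HOXD4 and HOXD8, had 2 fragments in piPSC8 and 0 elsewhere.

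The members on either side of this stretch went the other way in line 8. HOXD1, at the anterior end, was at 0 FPKM in PEF5 and PEF7 and 3.72 in PEF8, and at 0.0486, 0 and 1.46 in piPSC5, piPSC7 and piPSC8. It was 2.54-fold lower in piPSC8 than in PEF8 (1.81 to 3.64). HOXD10 was at 0, 0.0971 and 1.45 FPKM in PEF5, PEF7 and PEF8 and at 0.0539, 0.0682 and 1.03 in piPSC5, piPSC7 and piPSC8, and its ratio in line 8 of 0.713 had an interval that includes no difference (0.346 to 1.41). HOXD11, which like HOXD13 patterns the distal limb, was at 0, 0.122 and 1.35 FPKM in PEF5, PEF7 and PEF8 and at 0 in every piPSC library. HOXD13 had 12 fragments in PEF8, 1 in piPSC8 and 0 elsewhere.

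**Figure D3:**
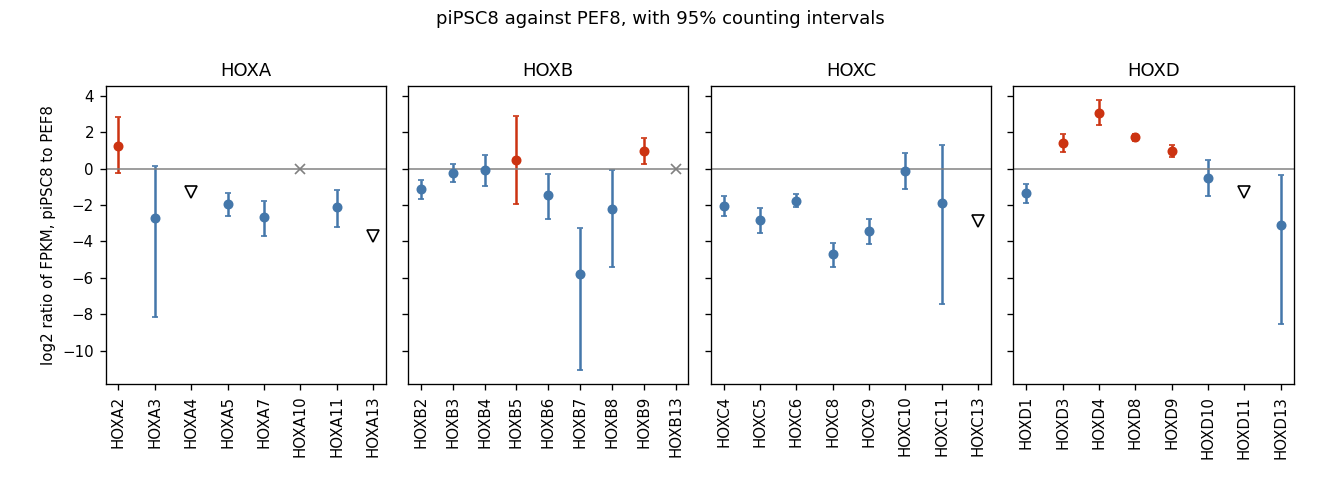
Ratio of FPKM in piPSC8 to PEF8 on a log2 scale for HOX genes, in order of paralogue number; circles are ratios with exact 95% counting intervals (red above 0, blue below), open triangles are upper limits of the ratio for genes with no fragment in piPSC8, and grey crosses mark HOXA10 and HOXB13, for which no ratio is given. HOXD3, HOXD4, HOXD8 and HOXD9 lie above 0 together, and all 8 HOXC genes lie below 0, with intervals that include 0 for HOXC10 and HOXC11.

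HOXB genes were the only members above 1 FPKM in PEF7, and their sum was lowest in line 5 and highest in line 8 in both states. Their summed level was 0.933, 7.01 and 15.8 FPKM in PEF5, PEF7 and PEF8, and 0.894, 4.56 and 9.95 FPKM in piPSC5, piPSC7 and piPSC8. The sums changed less within a line than between lines: piPSC was 1.04-fold lower than PEF in line 5, 1.54-fold lower in line 7 and 1.59-fold lower in line 8. HOXB2, which acts in the hindbrain and in neural crest of the second pharyngeal arch, was at 0.553, 2.88 and 3.7 FPKM in PEF5, PEF7 and PEF8, and at 0.183, 2.19 and 1.68 FPKM in piPSC5, piPSC7 and piPSC8. It was lower in the piPSC than in the PEF library of all 3 lines, with differences of -0.39, -0.28 and -0.81 on the log2(FPKM + 1) scale in lines 5, 7 and 8. In line 7 the counting interval of the ratio of 0.76 included no difference (0.555 to 1.03). The ratio in line 5 was 0.332 (0.121 to 0.789), on 7 fragments in piPSC5 and 25 in PEF5. The difference was -0.49 ± 0.55 without the block (limma adjusted p = 0.473) and -0.49 ± 0.24 when the line entered as a replicate block (limma adjusted p = 0.157), so it did not pass either way.

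HOXB3 was at 0.129, 1.69 and 4.64 FPKM in PEF5, PEF7 and PEF8 and at 0.203, 1.74 and 3.96 in piPSC5, piPSC7 and piPSC8. The PEF and piPSC values of the same line were within a factor of 1.58 of each other, while PEF8 was 36.1-fold PEF5 (12 to 178). The ratio of 1.58, of piPSC5 to PEF5, rested on 4 and 3 fragments and had a wide interval (0.267 to 10.8). HOXB4 was at 0.134, 0.429 and 2.52 FPKM in PEF5, PEF7 and PEF8 and at 0.238, 0.201 and 2.39 in piPSC5, piPSC7 and piPSC8. For both genes line 8 lay above lines 5 and 7 before and after reprogramming. HOXB6 was at 0, 1.13 and 2.49 FPKM in PEF5, PEF7 and PEF8 and at 0, 0 and 0.914 in piPSC5, piPSC7 and piPSC8. HOXB7 was at 0.0361, 0.558 and 1.59 FPKM in PEF5, PEF7 and PEF8 and at 0.0214, 0.0812 and 0.0292 in piPSC5, piPSC7 and piPSC8. In line 8 it was lower after reprogramming, with 75 fragments in PEF8 and 1 in piPSC8 (54.5-fold, 9.49 to 2180). Line 7 went the same way, with 29 in PEF7 and 3 in piPSC7 (6.88-fold, 2.13 to 35.3). PEF5 and piPSC5 held 2 and 1 fragments, too few to compare, and the groups overlapped. The group difference of HOXB7 was -0.63 ± 0.32 on the log2 scale without the filter (limma adjusted p = 0.191). HOXB5, HOXB8, HOXB9 and HOXB13 were below 1 FPKM throughout, and among them HOXB9 was higher in piPSC8 than in PEF8 (1.93-fold, 1.18 to 3.19) on 42 and 30 fragments.

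HOXA was the cluster with the lowest sum in PEF8, and the only one whose piPSC sum was highest in line 5. Their summed level was 0.957, 1.99 and 7.57 FPKM in PEF5, PEF7 and PEF8, and 4.04, 1.51 and 2.1 FPKM in piPSC5, piPSC7 and piPSC8. HOXA2 (ENSSSCG00000016706, chr18:45471061-45472875), the HOX gene of the second pharyngeal arch from which much of the external ear forms, was at 0.687, 0.995 and 0.404 FPKM in PEF5, PEF7 and PEF8. In piPSCs it was at 3.49, 0.736 and 0.954 FPKM in piPSC5, piPSC7 and piPSC8. It was detected in every library, PEF8 was the lowest of them, and piPSC5 alone stood out. The ratio of piPSC5 to PEF5 was 5.08 (2.81 to 9.84) on 60 and 14 fragments, and that of piPSC7 to PEF7 was 0.74 (0.307 to 1.67) on 10 and 19. The group difference of 0.56 ± 0.40 on the log2 scale did not pass (SE, limma adjusted p = 0.276).

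The other HOXA genes above 1 FPKM were high in PEF8 alone, as HOXC8 was. HOXA5 was at 0.0184, 0.137 and 1.55 FPKM in PEF5, PEF7 and PEF8 and at 0.0761, 0.124 and 0.401 in piPSC5, piPSC7 and piPSC8. HOXA7 was at 0.0578, 0.391 and 2.18 FPKM in PEF5, PEF7 and PEF8 and at 0.0685, 0.434 and 0.344 in piPSC5, piPSC7 and piPSC8. Between PEF8 and piPSC8, the level was 3.85-fold lower for HOXA5 (2.54 to 6.04) and 6.34-fold lower for HOXA7 (3.39 to 13.1). HOXA11, a gene of the forearm and the uterus, was at 0, 0.139 and 1.69 FPKM in PEF5, PEF7 and PEF8 and at 0.129, 0.0653 and 0.388 in piPSC5, piPSC7 and piPSC8. Its groups overlapped, and no library but PEF8 was above 1 FPKM. HOXA13, which patterns the limb tip and the genital tract, had 7, 3 and 54 fragments in PEF5, PEF7 and PEF8 and 0 in every piPSC library, which put piPSC8 at least 13.1-fold below PEF8. HOXA9, listed by the identifier ENSSSCG00000028997 and outside the counts given here, had 0, 11 and 48 fragments in PEF5, PEF7 and PEF8 and 0, 2 and 9 in piPSC5, piPSC7 and piPSC8. HOXA10 had a value above 0 in PEF8 alone (0.254 FPKM). Rows on the opposite strand overlap HOXA10 and HOXA11, and the library kit does not mark strand.

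Counted by line, few HOX genes were 2-fold apart in FPKM + 1 outside line 8. In line 5, 1 member was at least 2-fold higher in the piPSC library, HOXA2 (15.5% of all genes), and 0 were lower (13.0%). In line 7, 1 member was higher, HOXC6 (17.9%), and 1 lower, HOXB6 (12.0%). In line 8, 2 members were higher, HOXD4 and HOXD8 (16.9%), and 9 were lower, HOXC8, HOXC6, HOXB7, HOXC13, HOXC9, HOXC4, HOXD11, HOXA7 and HOXC5 (17.1%). Members near 0 in both libraries of a line could not reach 2-fold on this scale.

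By paralogue number, the middle of the clusters held most of the summed level in line 8, and a few genes gave most of it. The 3 groups hold 7, 14 and 13 genes, so their sums are not levels per gene. Paralogues 1 to 3 summed to 1.52, 5.87 and 14.1 FPKM in PEF5, PEF7 and PEF8 and to 4.21, 4.88 and 11.8 in piPSC5, piPSC7 and piPSC8. Paralogues 4 to 8 summed to 0.563, 4.37 and 86.1 FPKM in PEF5, PEF7 and PEF8 and to 1.89, 6.41 and 54.7 in piPSC5, piPSC7 and piPSC8. Of the sum in PEF8, HOXC6 gave 38.4 and HOXC8 20.8 FPKM. In piPSC8, HOXD8 gave 21.4, HOXD4 15.6 and HOXC6 11.4 FPKM. Paralogues 9 to 13 summed to 0.606, 1.45 and 28.6 FPKM in PEF5, PEF7 and PEF8 and to 1, 1.36 and 22.1 in piPSC5, piPSC7 and piPSC8. By sum the anterior group was the largest in PEF5, PEF7 and piPSC5, and the middle group in both libraries of line 8 and in piPSC7, where HOXC6 alone gave 4.16 of the 6.41 FPKM. PEF8 was 9.28-fold PEF5 for paralogues 1 to 3, 153-fold for 4 to 8 and 47.2-fold for 9 to 13. The PEF5 sums rested on 51, 27 and 24 fragments, with 1 gene over 3 fragments in the middle group, so these folds are imprecise.

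A few genes that act with HOX proteins or mark body regions stood apart in line 8. Of the 9 TALE partners of HOX proteins, PEF8 was at least 2-fold above both other PEFs in FPKM + 1 for 0 (3.32% of all genes) and below both for 2 (1.54%), and of 30 head and limb mesenchyme factors it was above for 5 and below for 2. MEIS1, a TALE homeodomain partner of HOX proteins, was at 8.64, 10.9 and 1.31 FPKM in PEF5, PEF7 and PEF8 and at 6.08, 11.2 and 1.84 in piPSC5, piPSC7 and piPSC8. It was lowest in the line with the highest HOX levels, in both states. DLX5, a factor of the pharyngeal arches, was at 2.52, 4.34 and 0.0871 FPKM in PEF5, PEF7 and PEF8 and at 5.96, 19.1 and 0.0799 in piPSC5, piPSC7 and piPSC8. Other DLX genes went the other way, with DLX4 at 2.33, 2.73 and 9.89 FPKM and DLX3 at 2.6, 1.25 and 7.87 FPKM in PEF5, PEF7 and PEF8. BARX1, of facial mesenchyme, was at 9.31, 6.34 and 0.173 FPKM in PEF5, PEF7 and PEF8, EN1, of ventral limb and trunk skin, at 0.83, 1.61 and 42.4, and TBX15, of limb and trunk mesenchyme, at 8.89, 8.44 and 36.9. In piPSCs BARX1 and EN1 were at or below 0.116 FPKM and TBX15 at or below 1.01 FPKM. These genes were picked out of the lists with their values in view, and the line term of limma did not pass for any of them (adjusted p = 0.848 for each). Each line is 1 embryo, and their part in the HOX levels was not tested.

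**Figure D4:**
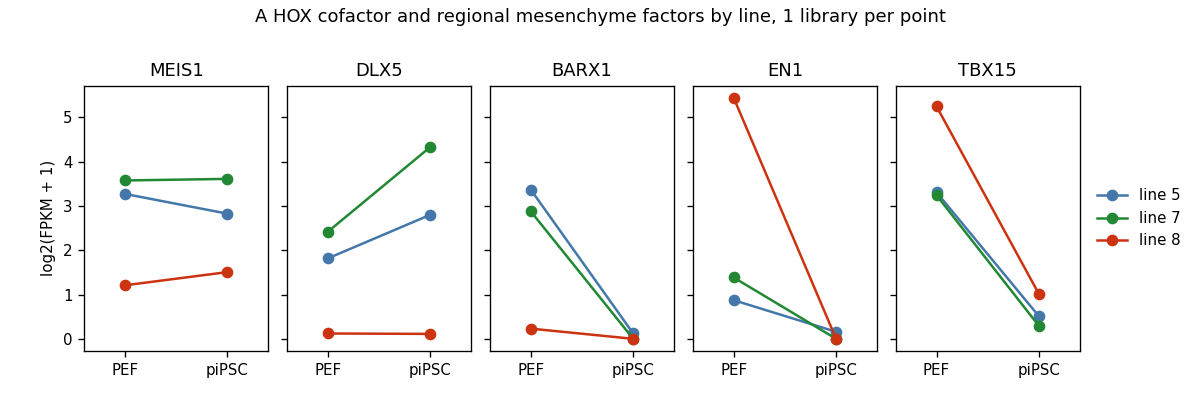
Level as log2(FPKM + 1) of the HOX partner MEIS1 and of the regional mesenchyme factors DLX5, BARX1, EN1 and TBX15, PEF on the left and piPSC on the right, with 1 point per library and lines joining the libraries of the same line. Line 8 is lowest for MEIS1 and DLX5 in both states, and in PEFs it is lowest for BARX1 and highest for EN1 and TBX15.

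Between PEFs and piPSCs, the calls of each list stand beside 20.2% of all tested genes called higher and 16.7% called lower. Among the 9 TALE partners of HOX proteins, 8 were tested, 2 rose in piPSCs (MEIS2, 1.64 ± 0.37, and PBX3, 1.03 ± 0.33, log2 with SE) and 1 fell (MEIS3, -2.80 ± 0.43), with a median of -0.29 over the 8. PBX3 was not called with the line as a replicate block (limma adjusted p = 0.0749). Of the 12 MLL and Trithorax genes, which maintain HOX transcription, 6 rose and 0 fell, with a median of 0.84. PSIP1, which tethers MLL complexes to chromatin, rose by 2.37 ± 0.26, MLLT1 by 1.44 ± 0.17, KMT2B by 1.18 ± 0.24 and MEN1 by 1.14 ± 0.18. Of the 16 Polycomb genes, 4 rose and 2 fell, with a median of 0.06. EZH2, the methyltransferase that places the repressive mark of Polycomb, rose by 2.39 ± 0.45 and CBX2 by 1.96 ± 0.31, while CBX7 changed by -1.68 ± 0.23 and PHC2 by -1.13 ± 0.25. Scaled to the median ratio over genes, which moves the median of all genes from 0.20 to -0.0066, the calls were 1 higher and 1 lower for the TALE list, 4 and 0 for MLL and Trithorax and 4 and 2 for Polycomb, whose median turned to -0.16.

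Retinoic acid is the signal that sets the anterior borders of HOX expression in the embryo. Of 10 tested genes of its synthesis, breakdown and reception, 1 rose and 4 fell in piPSCs (20.2% and 16.7% of all tested genes), with a median log2 fold change of -1.62. The binding protein CRABP2 changed by -4.16 ± 1.03, the degrading enzyme CYP26B1 by -2.84 ± 0.78 and the receptor RARA by -1.57 ± 0.18, and the receptor RARB rose by 1.12 ± 0.33 (SE, limma adjusted p = 0.0153, 0.0221, 0.000912 and 0.0282). In the fit that pairs the lines (replicate block) neither CYP26B1 (adjusted p = 0.0582) nor RARB (0.0501) passed, RDH10 was called in its place, and RARB was also lost when libraries were scaled to the median ratio. For 3 of 12 retinoic acid genes PEF8 was at least 2-fold above both other PEFs in FPKM + 1 (3.32% of all genes). It was at least 2-fold below both for 1 (1.54%). The synthesis enzyme ALDH1A3 was at 0.421, 0.409 and 15.8 FPKM in PEF5, PEF7 and PEF8, and CRABP1 at 1.22, 33.5 and 0.0307. CYP26B1 was at 10.2, 13.1 and 65.9 FPKM in PEF5, PEF7 and PEF8, highest in the line with the highest HOX levels. Among piPSCs CYP26B1 was lowest in that line, at 2.6, 4.49 and 0.463 FPKM in piPSC5, piPSC7 and piPSC8. These genes were named with their values in view, and their part in the HOX levels was not tested. Of 25 tested head and limb mesenchyme factors, 3 rose and 10 fell in piPSCs, with a median of -0.72, and 9 fell with the replicate block. HAND2, of heart, limb and arch mesenchyme, rose by 4.22 ± 0.26, TBX18 by 1.52 ± 0.30, PRRX2 changed by -5.73 ± 0.54 and TBX15 by -3.33 ± 0.56. Of 16 tested genes from the regions flanking the clusters, 6 rose and 2 fell (CALCOCO2 by -2.37 ± 0.26 and CALCOCO1 by -1.76 ± 0.27), set against the same shares of all genes. CBX1 (2.04 ± 0.30) and ATP5G3 (1.78 ± 0.23) were at the head of those that rose. They lay 445 kb from HOXB and 800 kb from HOXD. Scaled to the median ratio, 2 mesenchyme factors were called higher and 10 lower, and 5 and 3 of the flanking genes. Of the ParaHox and EVX genes, the closest relatives of HOX genes, GSX2 and CDX1 were in the table and neither passed the filter, with at most 0.437 FPKM.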

How the data were processed

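RNA-seq of 3 PEF and 3 piPSC libraries was analysed from a table of FPKM values that the authors deposited, 1 column per library. Per the labels, poly-A RNA was made into libraries with a kit that does not mark strand and sequenced as 150 bp paired ends, and the submitters' processing notes name Bowtie2 2.2.3, HISAT2 2.1.0, HTSeq 0.6.0 and Sscrofa11.1. The annotation release and the treatment of fragments shared between overlapping genes are not given in the sources used here. Fragments were recovered from the FPKM steps, taking for each gene the smallest length that gave whole fragments in every library (within 1e-06 plus 1e-07 of the count), or the span for short RNAs of 1 exon. Values came out whole (100%) for all 16467 genes with 2 or more libraries above 0. A value in a single library (1540 genes, HOXA10 among them) does not fix the number. Where the span of a gene allows it, a multiple of the smallest number also fits, so fragments are the lowest possible, which bears most on HOXB6, HOXC11, HOXC13 and HOXD11, with 2 or 3 libraries above 0. On simulated data 494 of 496 genes were exact. Totals were 11010629 to 17836510 per library.

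Groups were compared with limma 3.58.1 in R 4.3.3 (lmFit, eBayes with a trend, two-sided) on log2(FPKM + 1), over the 12428 genes that averaged 0.5 FPKM or more, with Benjamini-Hochberg adjustment over all of them and no replicate block. The study's general statistics name an unpaired test, while its RNA-seq set each piPSC line against its own PEF line, so the block was the alternative. A gene was called at an adjusted p under 0.05 and a 2-fold change. Fold changes on this scale understate those of low genes. Tested on simulated data, 177 of 200 genes changed by 2 on the log2 scale were called, with 9 others. The simulation gave every gene the same dispersion and no difference between lines. Its recovery therefore does not carry over to HOX genes, whose spread between lines was wide. Libraries of the same number come from the same embryo and are paired. Their deviations from the mean of the group had correlations of 0.0921, 0.0946 and 0.08, and those of libraries of different lines -0.121 to 0.0553. With 1 library per line, p-values measure the spread between lines. Ratios of libraries carry exact 95% Clopper-Pearson intervals, and a count of 0 was taken as up to 3 fragments. Both cover counting error only.

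The alternatives were the replicate block, a pseudocount of 0.1, other filters, 3 scalings, no trend, voom on recovered fragments and leaving out each library. Leaving out line 8 and the unfiltered block were added after values were seen. The HOX genes and the gene lists were chosen with earlier results of these data known. HOX genes with at least 1 FPKM in any library are given in every library, and from each list at most the 2 largest and 2 smallest called changes, with exceptions named where they occur. Promoters were read from the RefSeq genome of Sscrofa11.1 with Python 3.11.15. Some genes and sequences are not reported here.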

Additional observations from a re-analysis of the deposited data

Results flagged for a closer look

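HOXC6 went opposite ways in the lines. The log2 ratio of FPKM + 1 in the piPSC to the PEF library was 0.84 in line 5, 1.77 in line 7 and -1.67 in line 8. The difference between lines was not tested, since each line has 1 library per state. Line 8 is also the line with Y-linked fragments and the one in which PEF8 had 412 HOXC6 fragments against 1 in PEF5 and 6 in PEF7.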

How the results depend on the processing

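The count of HOX genes called was 0 in each direction under all 17 alternatives, and the lowest adjusted p of any of them was 0.0882, for HOXB6 without PEF5. With the replicate block 0 HOX genes were called in this paired fit, and the calls over all genes were 2462 higher and 2023 lower, against 2505 and 2070 without it. Median-ratio scaling gave 1879 higher and 2511 lower, and scaling to a sum of 1000000 gave 1986 and 2815, with the median of all genes at -0.0066 and -0.06. Of 244 alternative log2 fold changes of the 16 tested HOX genes, 219 kept their sign and 25 of 9 genes reversed it. The cause was not tested. With a pseudocount of 0.1, HOXD9 was at -0.03, HOXB3 at 0.07 and HOXC4 at 0.11. With voom, HOXD9 was at -0.08, HOXD1 at 0.59, HOXD3 at -0.04, HOXB3 at 0.11, HOXC4 at 1.44 and HOXC5 at 0.86. Scaling to a sum put HOXD9 at -0.09, quantile normalization put HOXB4 at 0.03, and leaving out both libraries of line 8 put HOXB3 at 0.06. Leaving out 1 library at a time gave -1.12 to 1.13 for HOXD9, -0.63 to 1.97 for HOXC6, -0.62 to 0.54 for HOXB3, -0.77 to 1.39 for HOXD8 and -0.55 to 0.43 for HOXB4. The log2 ratios of summed cluster levels plus 1, piPSC to PEF, were -0.34 for HOXA (-0.70 to 0.52 with 1 library left out), -0.54 for HOXB (-1.26 to 0.30), -1.73 for HOXC (-2.63 to 2.32) and 1.10 for HOXD (-2.48 to 3.42). PEF8 decided the sign for HOXA, HOXB and HOXC (0.52, 0.30 and 2.32 without it) and piPSC8 that for HOXD (-2.48 without it). At these depths, members with under about 3 fragments per library cannot be compared.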
